A study of Mus musculus with 10 samples.

Results

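A set of 8 genes that mark stem cells of the intestinal crypt, Lgr5, Smoc2, Olfm4, Ascl2, Tnfrsf19, Msi1, Lrig1 and Bmi1, was followed in RNA from mouse ileum after a weight-loss operation. They were taken by symbol, without a threshold on any measured value but with earlier results of these data known, and they are 8 of the 36401 genes listed for each library. Each symbol matched 1 gene, and all 8 passed the filter on low counts. Of the 8, 7 had lower mean levels after the operation and Bmi1 did not, but the groups overlapped for every one of the 8 and none passed the test across all genes.

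The lining of the small intestine is renewed from the base of the crypts, where slender columnar cells wedged between Paneth cells divide and feed a progeny that moves up to the villus. These cells depend on Wnt signals, which R-spondin ligands strengthen through the receptor encoded by Lgr5, on Notch signals from neighbouring cells and on EGF, while BMP signals hold back their programme higher up the crypt-villus axis. Bmi1 and Lrig1 have also been used to mark slower-cycling or broader sets of crypt cells, so the 8 genes do not stand for a single cell state.

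Male C57Bl6 mice made obese on a 60 kcal % fat diet for 6 weeks had surgery at an age of 8 weeks. The 5 mice called VSG underwent vertical sleeve gastrectomy, in which the greater part of the stomach is cut away to leave a narrow tube, and ate freely afterwards. The 5 mice called SPF had a sham operation followed by pair-feeding, so that their ration matched what VSG mice ate. Both groups received a liquid diet over the 4 days around surgery, and about 8 weeks later were fasted overnight and given 0.5 mL of it by gavage 1 hour before the terminal ileum was taken. Neither lean, unoperated nor freely fed sham mice are among the samples, so the comparison is of surgery against sham at equal intake in obese males. The labels do not say whether the whole wall or the mucosa was used, and in such bulk tissue fewer stem cells and less RNA per stem cell cannot be told apart.

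The 10 libraries held 15364651 to 34058181 estimated counts. Levels below are CPM, counts scaled to library size after TMM scaling, a factor that corrects for library composition, and a fold change is the log2 ratio of VSG to SPF from edgeR. The 3 libraries VSG 2, SPF 2 and SPF 4 stood apart from the other 7 in genes of gut position and went against their ileal label. Gata4, which encodes a factor that specifies jejunal identity, was at 109.5 to 183.5 CPM in these 3 and at 1.72 to 6.28 CPM in the other 7. Fabp6, the ileal bile acid binding protein, was at 39.0 to 62.1 CPM against 2558 to 6112 CPM. Results for the 8 genes and medians of the gene lists are therefore given with and without these 3 libraries, which leaves 4 VSG and 3 SPF.

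Promoter sequence was at hand for 5 of the 8 genes, in 6 windows, and is shown for the secreted marker with the highest level, for the transcription factor of the group, and for the 1 window that held a searched motif. Each run gives the 250 bases before a RefSeq transcript start, 5′ to 3′ on the gene's strand, in build GRCm38.p6. Olfm4 lies on the plus strand at chr14:80000052-80000301, Ascl2 on the minus strand at chr7:142969265-142969514, and the second of the Tnfrsf19 windows on the minus strand at chr14:61037988-61038237. Capitals mark a match to a motif searched on both strands: ATCAAAG, the core bound by TCF/LEF factors at the end of the Wnt pathway, or CAGCTG, an E-box of the kind read by basic helix-loop-helix factors such as Ascl2.
Olfm4: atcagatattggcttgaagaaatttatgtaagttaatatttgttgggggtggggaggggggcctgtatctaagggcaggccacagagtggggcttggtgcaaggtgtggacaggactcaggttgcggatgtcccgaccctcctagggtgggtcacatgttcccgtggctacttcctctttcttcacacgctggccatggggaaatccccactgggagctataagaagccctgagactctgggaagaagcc
Ascl2: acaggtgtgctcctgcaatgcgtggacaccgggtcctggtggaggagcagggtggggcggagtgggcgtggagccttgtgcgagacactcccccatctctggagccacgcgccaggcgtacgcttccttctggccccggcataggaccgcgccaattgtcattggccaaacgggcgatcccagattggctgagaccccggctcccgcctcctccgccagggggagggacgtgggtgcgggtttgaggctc
Tnfrsf19: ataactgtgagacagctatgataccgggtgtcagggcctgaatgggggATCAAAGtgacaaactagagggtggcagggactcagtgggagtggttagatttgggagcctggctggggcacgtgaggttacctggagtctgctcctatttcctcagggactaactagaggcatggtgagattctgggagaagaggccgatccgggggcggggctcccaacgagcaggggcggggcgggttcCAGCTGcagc
The Tnfrsf19 window held 1 match to each motif, and the 5 other windows, 1 each of Bmi1, Lrig1, Olfm4 and Ascl2 and the first of Tnfrsf19, held none. For both Tnfrsf19 windows, bases just after the RefSeq start were not found in a GENCODE M21 transcript of the gene. For the Bmi1, Lrig1, Olfm4 and Ascl2 windows they were. Over 32851 mouse promoter windows of the same length, 3.21% held the first motif, and 4271 windows held the second. GC content was 54.0% for Olfm4, 59.2% for the Tnfrsf19 window shown and 67.6% for Ascl2. A match of letters is a description of the window and not a measured binding site.

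Smoc2 and Olfm4 encode secreted proteins. Smoc2, a matrix-associated protein made by columnar crypt cells and also known from stroma, was at 35.1, 49.3, 34.7, 27.0 and 28.0 CPM in VSG 1 to 5 and at 51.9, 60.2, 35.1, 66.5 and 49.9 CPM in SPF 1 to 5. There were 4 SPF libraries above the highest VSG library, and SPF 3 stood with the VSG libraries. On the log2 scale the difference was -0.60 ± 0.20 (SE; 95% interval -1.05 to -0.15; means 34.8 ± 8.93 and 52.7 ± 11.9 CPM, SD, n = 5 each), and the edgeR quasi-likelihood test gave an unadjusted p of 0.0135 and a Benjamini-Hochberg adjusted p of 0.977 over 15678 genes. Among those genes, 0.912% had a lower unadjusted p than Smoc2.

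Olfm4, a secreted glycoprotein and the most abundant of the 8, was at 139.9, 411.3, 290.9, 99.96 and 63.6 CPM in VSG 1 to 5. In SPF 1 to 5 it was at 370.2, 338.8, 203.7, 352.6 and 514.1 CPM. The VSG libraries were widely spread, with VSG 2 above all SPF libraries but SPF 5, and with VSG 1, 4 and 5 below every SPF library. The fold change was -0.82 ± 0.46 (SE; 95% interval -1.84 to 0.19; edgeR adjusted p = 0.977), a wide interval that includes 0. It was -1.26 without VSG 2 and -0.60 without VSG 5.

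**Figure D1:**
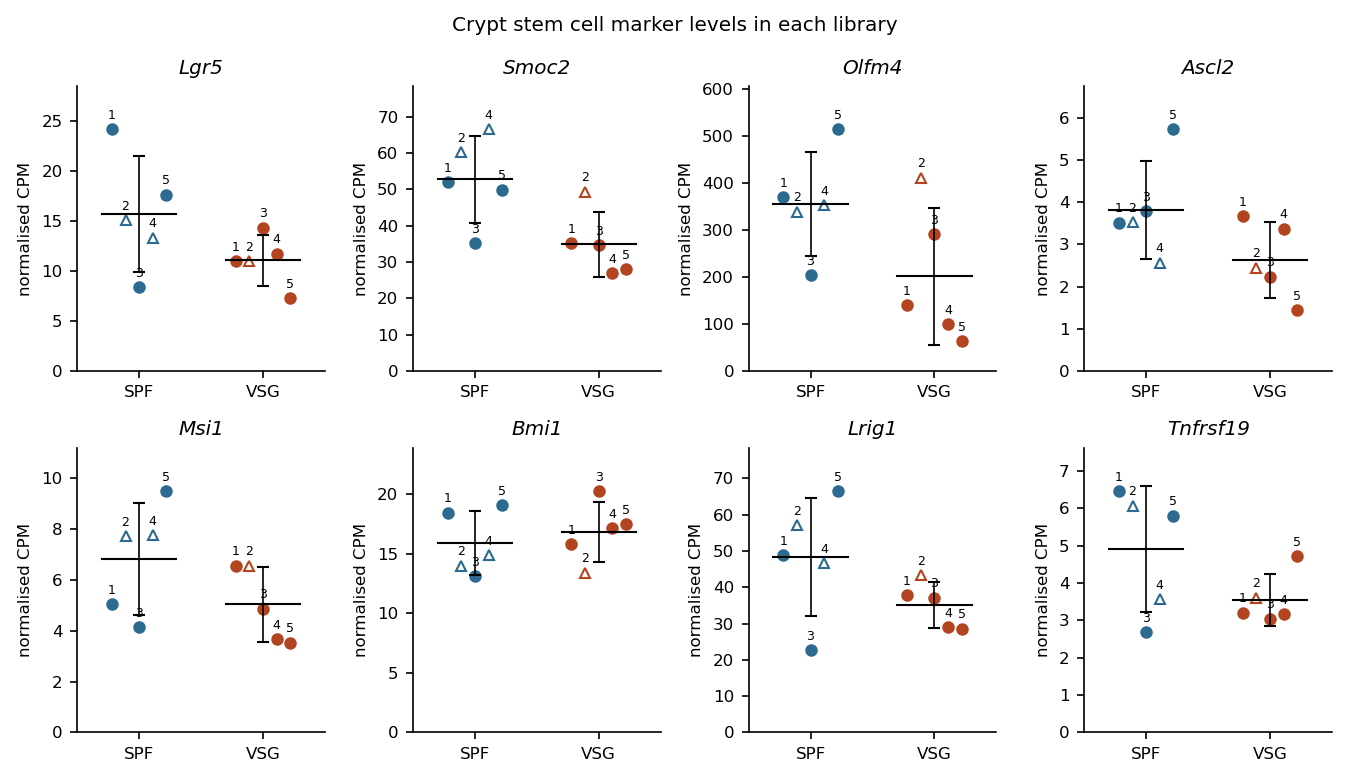
Level of each of the 8 crypt stem cell markers in CPM (y axes from 0) in the VSG and SPF libraries. Points are libraries with their replicate number, open triangles are the 3 libraries that stand apart in gut position, bars are means and whiskers are SD over 5 libraries. The groups overlap in every panel, and SPF 3 is the lowest SPF point for 7 of the 8 genes.

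Lgr5 and Tnfrsf19 encode membrane receptors. Lgr5, the R-spondin receptor that defines the columnar stem cells, was at 10.94, 10.99, 14.3, 11.7 and 7.28 CPM in VSG 1 to 5 and at 24.1, 15.1, 8.39, 13.3 and 17.6 CPM in SPF 1 to 5. SPF 1, 2 and 5 lay above the highest VSG library, while SPF 3 lay below 4 of the 5 VSG libraries. Lgr5 had a fold change of -0.51 ± 0.27 (SE; 95% interval -1.10 to 0.08; edgeR adjusted p = 0.977), and it was -0.29 without SPF 1, the library with the highest Lgr5.

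Tnfrsf19, also called Troy, a receptor of the tumour necrosis factor receptor family and a Wnt target in crypts, was at 3.20, 3.61, 3.04, 3.17 and 4.72 CPM in VSG 1 to 5. In SPF 1 to 5 it was at 6.47, 6.08, 2.68, 3.57 and 5.80 CPM, so that SPF 1, 2 and 5 stood above all VSG libraries and SPF 3 below all of them. These levels rest on 45 to 223 reads a library. Its fold change came to -0.47 ± 0.26 (SE; 95% interval -1.05 to 0.11; edgeR adjusted p = 0.977).

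Ascl2, Msi1 and Bmi1 act inside the cell on gene activity. Ascl2, the transcription factor that maintains the Lgr5 programme, was at 3.67, 2.45, 2.23, 3.37 and 1.44 CPM in VSG 1 to 5 and at 3.51, 3.52, 3.78, 2.56 and 5.72 CPM in SPF 1 to 5. It was counted by only 33 to 220 reads a library, the fewest of the 8. VSG 2, 3 and 5 lay below the lowest SPF library, SPF 3 and 5 lay above the highest VSG library, and the other libraries overlapped. The fold change was -0.54 ± 0.29 (SE; 95% interval -1.18 to 0.10; edgeR adjusted p = 0.977), and -0.34 without SPF 5.

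Msi1, an RNA-binding protein of stem and progenitor cells, was at 6.56, 6.56, 4.86, 3.67 and 3.52 CPM in VSG 1 to 5. In SPF 1 to 5 it was at 5.04, 7.72, 4.14, 7.74 and 9.49 CPM. SPF 2, 4 and 5 stood above the VSG libraries and VSG 4 and 5 below the SPF libraries. Msi1 had a fold change of -0.44 ± 0.28 (SE; 95% interval -1.05 to 0.17; edgeR adjusted p = 0.977), and -0.28 without SPF 5.

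Bmi1, a subunit of Polycomb repressive complex 1, was at 15.8, 13.4, 20.3, 17.1 and 17.5 CPM in VSG 1 to 5 and at 18.5, 14.0, 13.1, 14.9 and 19.1 CPM in SPF 1 to 5. It was the steadiest of the 8, and VSG 3, the highest, and SPF 3, the lowest, lay just outside the range of the other group. The fold change was 0.08 ± 0.16 (SE; 95% interval -0.27 to 0.42; edgeR adjusted p = 0.985), and its sign turned when library totals alone (-0.01) or epithelial genes (-0.20) set the scale, and without SPF 3 and the 3 libraries that stand apart (-0.09).

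Lrig1, a membrane protein that restrains EGF receptors, was at 37.8, 43.3, 37.2, 28.9 and 28.6 CPM in VSG 1 to 5. In SPF 1 to 5 it was at 48.8, 57.1, 22.7, 46.6 and 66.5 CPM. SPF 3 stood below every VSG library and the 4 other SPF libraries above every one. The fold change was -0.46 ± 0.25 (SE; 95% interval -1.004 to 0.083; edgeR adjusted p = 0.977), and it was -0.30 with the level of smooth muscle genes as a covariate.

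Across the 8 genes, 0 were called at an adjusted p under 0.05, against 0% (0 of 15678) of all genes tested. In total 595 genes had an unadjusted p under 0.05 in edgeR, and DESeq2 called 11 genes and limma-voom 0, with none of the 8 among them. Smoc2 alone of the 8 was lower at an unadjusted p under 0.05, where 1.91% of all genes were. None of the 8 had groups that did not overlap with VSG lower, against 0.293% of genes. Of the 8 fold changes 7 were below 0, where 58.1% of all genes were, and the median was -0.49 for the 8 and -0.05 for all genes. With epithelial genes as the reference for scaling, 8 of 8 and 86.7% of all genes were below 0, with medians of -0.77 and -0.27. Of the genes with an unadjusted p under 0.05, 50.4% were lower in VSG with TMM scaling, 69.6% with upper quartile factors, 67.8% with library totals and 84.9% with the epithelial reference.

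**Figure D2:**
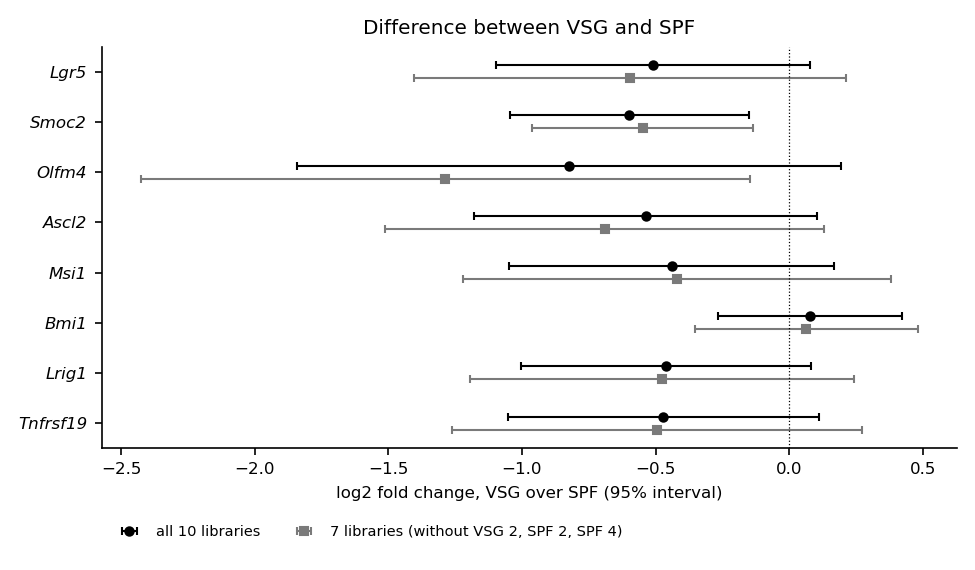
Log2 fold change of VSG against SPF (x axis) for each of the 8 genes with 95% intervals, from all 10 libraries and from the 7 left without those that stand apart in gut position. In both fits 7 of the 8 points lie below 0, and the interval excludes 0 for Smoc2 in both and for Olfm4 in the smaller one, before adjustment.

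Without the 3 libraries that stand apart, 7 of the 8 genes again had fold changes below 0, against 56.8% of the 15911 genes then tested, with a median of -0.52 for the 8 and -0.05 for all genes. Olfm4 moved to -1.29 ± 0.50 (SE; 95% interval -2.43 to -0.15), with means of 148.6 ± 99.9 CPM (SD, n = 4) and 362.7 ± 155.3 CPM (SD, n = 3), an unadjusted p of 0.0312 and an adjusted p of 0.696 in edgeR. Smoc2 was at -0.55 ± 0.18 (SE; edgeR unadjusted p = 0.0149, adjusted p = 0.633). These 2 genes were lower at an unadjusted p under 0.05, where 3.26% of genes were. None of the 8 had groups that did not overlap with VSG lower, against 3.77% of genes. The nearest was Smoc2, with the highest VSG library, VSG 1, at 35.12 CPM and the lowest SPF library, SPF 3, at 35.09 CPM.

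The libraries that stand apart in position lay within the range of the other 7 for Lgr5 (10.99 to 15.06 against 7.28 to 24.1 CPM), Olfm4 (338.8 to 411.3 against 63.6 to 514.1 CPM) and also for Ascl2, Msi1, Bmi1, Lrig1 and Tnfrsf19. Smoc2 was the exception, at 49.3, 60.2 and 66.5 CPM in the 3 and 27.0 to 51.9 CPM in the other 7. Mean levels of Olfm4 (367.6 against 240.3 CPM), Msi1 (7.34 against 5.33 CPM), Lrig1 and Tnfrsf19 were also higher in the 3. Those of Lgr5, Ascl2 and Bmi1 were lower.

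SPF 3 weighed on most of the comparison. It was the lowest SPF library for 7 of the 8 genes, with Ascl2 the exception. It is singled out here by the levels of these same genes, so the counts without it are only a description. Without it, 5 of the 8 genes were lower in VSG at an unadjusted p under 0.05, where 7.26% of the 15873 genes then tested were, and none passed adjustment (lowest adjusted p 0.334, edgeR). The fold changes were then -0.71 for Smoc2, -0.66 for Lgr5, -0.63 for Lrig1, -0.62 for Tnfrsf19 and -0.57 for Msi1. SPF 3 also had the lowest summed level of the smooth muscle list, 314.4 CPM against 784.4 to 3935 CPM in the other 9 libraries, and the highest of the epithelium list, 26850 CPM against 12420 to 22240 CPM. At the other end, SPF 5 was the highest SPF library for 5 of the 8 genes, and it had the highest smooth muscle sum, 3935 CPM, and the lowest villus enterocyte sum, 12150 CPM. Without SPF 5, 1 of the 8 genes had an unadjusted p under 0.05 in edgeR, as had 504 of the 15783 genes then tested. The part of tissue makeup in the levels of these 2 libraries was not tested.

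**Figure D3:**
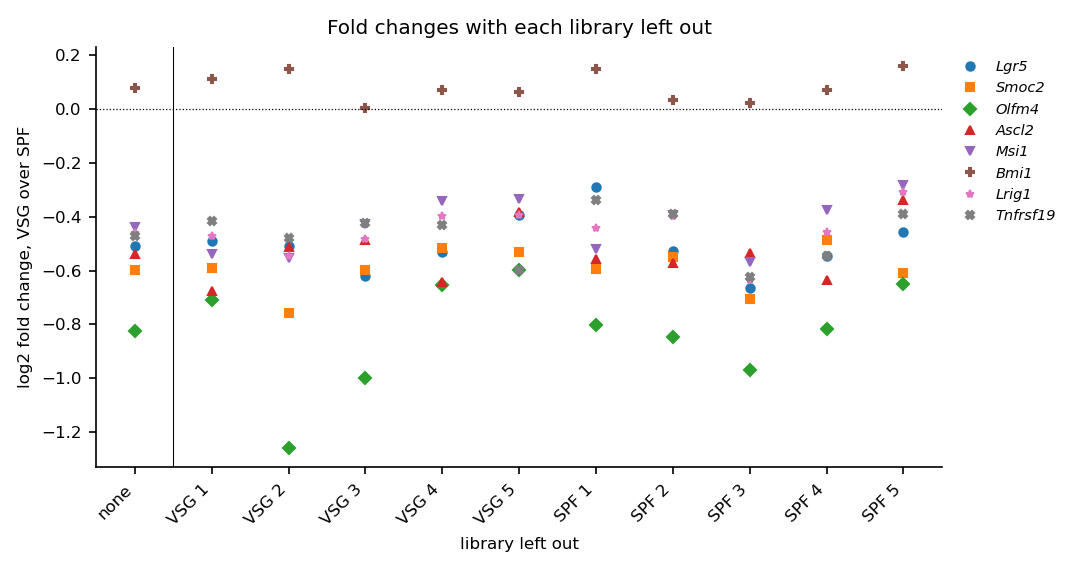
Log2 fold change of each of the 8 genes (y axis) with all libraries and after leaving out each library in turn. Points are fits, and the lowest value of Lgr5, Msi1, Lrig1 and Tnfrsf19 comes without SPF 3.

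Per kilobase of exon, the order of levels over the 10 libraries was Olfm4, Smoc2, Lrig1, Bmi1, Lgr5, Ascl2, Msi1 and Tnfrsf19. On this scale Olfm4 was at 96.0 ± 50.6 CPM per kb (SD, n = 10), Smoc2 at 14.4 ± 4.50, Lrig1 at 8.42 ± 2.74 and Bmi1 at 4.42 ± 0.68. Lgr5 was at 2.84 ± 1.03 CPM per kb, Ascl2 at 1.99 ± 0.72, Msi1 at 1.89 ± 0.64 and Tnfrsf19 at 0.93 ± 0.31. Olfm4 exceeded Smoc2, Smoc2 exceeded Lrig1 and Lrig1 exceeded Bmi1 in all 10 libraries, as did Msi1 over Tnfrsf19. Bmi1 exceeded Lgr5, and Lgr5 exceeded Ascl2, in 9 of 10. Ascl2 was above Msi1 in 5 of 10 libraries, so that pair did not differ beyond its spread. The ratio of the highest to the lowest library was 8.09 for Olfm4 and 1.55 for Bmi1, with 2.41 to 3.97 for the other 6 genes. Genes on the opposite strand overlap Lgr5, Smoc2, Msi1, Lrig1 and Tnfrsf19 in the GENCODE M21 annotation. On the same strand, a lincRNA gene overlaps Olfm4 and a miRNA gene overlaps Lrig1. Spans of whole genes were compared, introns included. Of the overlapping genes, only the protein-coding gene opposite Lrig1 is among those listed for each library, at a mean of 7.28 CPM. The sources used here do not state whether counting used strand, so reads from stretches shared by such pairs cannot be told apart.

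Between libraries the levels of the 8 genes were mostly positively correlated, though no pair passed adjustment. Over the 7 libraries that share an ileal profile, 27 of the 28 pairs had a positive Pearson r of log2 CPM, with a median of 0.638 and a range from -0.162 (Ascl2 with Bmi1) to 0.895 (Smoc2 with Olfm4). For Smoc2 with Olfm4 the exact permutation p was 0.0101 and 0.161 after adjustment over the 28 pairs, Spearman's rho was 0.786 (exact permutation p = 0.048, adjusted 0.224), and r was 0.81 without the 2 libraries farthest from the median. For Lgr5 with Lrig1, r was 0.808 (exact permutation p = 0.0294, adjusted 0.161) with a rho of 0.821 (p = 0.0341, adjusted 0.224), and r was 0.906 without the 2 farthest libraries. In all, 6 pairs had an unadjusted p under 0.05. Among them, Smoc2 with Lrig1 went from an r of 0.799 to 0.236 without the 2 farthest libraries. In that check r of Smoc2 was -0.613 with Tnfrsf19 and -0.266 with Bmi1. For Ascl2 it was -0.348 with Olfm4, -0.237 with Lrig1 and -0.754 with Bmi1. The other pairs stayed above 0. The 7 libraries are of both groups and differ in tissue makeup, as the smooth muscle and epithelium sums show. The correlations therefore hold differences between groups and in makeup as well as any between the genes alone.

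The same 7 libraries were used to set the 8 genes against lists of other genes, 80 relations in all, of which 23 had an unadjusted exact permutation p under 0.05 and 0 passed adjustment (lowest 0.0516). The median r of the 8 genes was 0.841 with 15 other crypt stem and progenitor genes, 0.779 with 11 Wnt targets, 0.559 with 24 cell cycle genes and 0.428 with Paneth cell genes. Without the 2 farthest libraries, r with the crypt and Wnt target lists was 0.037 and 0.099 for Ascl2 and -0.785 and -0.807 for Tnfrsf19. For the remaining genes it ran from 0.447 (Msi1) to 0.978 (Lrig1) with the crypt list. With the Wnt targets it ran from 0.30 (Msi1) to 0.968 (Lrig1). Over all 7 libraries, the median r of the 8 genes had the following values with the other lists. It was -0.752 with villus enterocyte genes and -0.559 with epithelial genes, with r below 0 for all 8 genes in both. Signs were less steady without the 2 farthest libraries. With epithelial genes r was then above 0 for Smoc2 (0.743), Ascl2 (0.312) and Msi1 (0.188), and below 0 for the rest. With villus enterocyte genes it was above 0 for Tnfrsf19 (0.593) alone. Over all 7 libraries the median r was also 0.747 with fibroblast genes and 0.49 with smooth muscle genes. With fibroblast genes, r without the 2 farthest libraries was -0.522 for Ascl2, 0.071 for Smoc2 and 0.061 for Tnfrsf19. For the remaining genes it ran from 0.223 (Msi1) to 0.981 (Lgr5). Among single relations, Msi1 with the villus enterocyte list had r = -0.934 (exact permutation p = 0.000992, adjusted 0.0516) and rho = -0.964 (p = 0.00278, adjusted 0.0741), with r = -0.823 without the 2 farthest libraries. For Lrig1 with the smooth muscle list r was 0.793 (exact permutation p = 0.0329, adjusted 0.144; rho 0.714, p = 0.0881, adjusted 0.261), and r was -0.073 without the 2 farthest libraries, so this relation rested on those libraries.

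**Figure D4:**
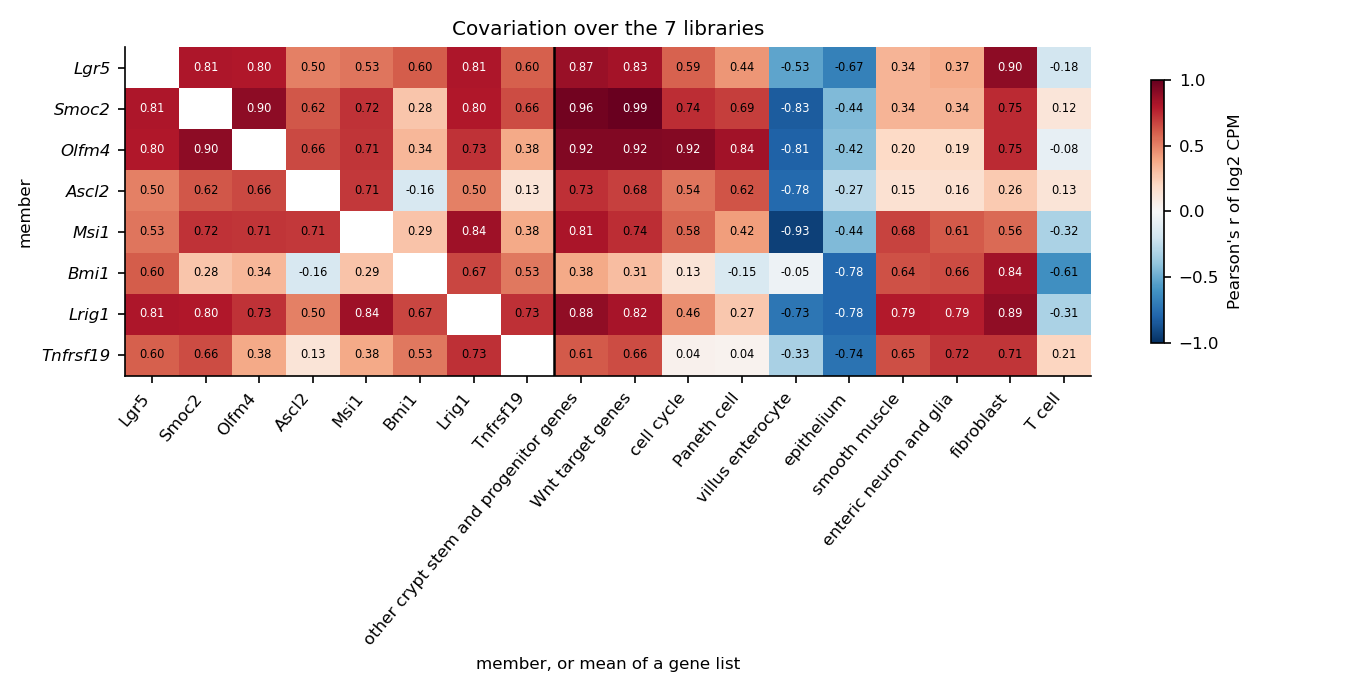
Pearson r of log2 CPM over the 7 libraries that share an ileal profile, for pairs of the 8 genes and for each gene against lists of other genes, on a colour scale from -1 to 1. The 8 genes are mostly positive with each other and with the crypt and Wnt target lists, and negative with the villus enterocyte and epithelium lists.

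The genes whose levels most resembled those of the main markers were found over all 10 libraries, after the mean of each set of libraries by gut position had been subtracted, among 11012 genes. For Lgr5 they were 9130208D14Rik (r = 0.979), Eif2ak4 (r = 0.953) and Pcsk6 (r = 0.935). For Smoc2 they were Efemp1 (r = 0.953), Cntrob (r = 0.947) and Rnf149 (r = 0.94). For Olfm4 they were Gm5803 (r = 0.981), Ergic1 (r = 0.967) and Nom1 (r = 0.961). These are the highest of many correlations over few libraries and are given as a description.

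The pathways that maintain crypt stem cells had no gene called in any list, against 0% of all genes. Of 15 other crypt stem and progenitor genes, 13 had fold changes below 0 (median -0.27, and -0.37 without the 3 libraries that stand apart). Hopx, a marker of slow-cycling crypt cells, was at 28.0 ± 4.68 CPM in VSG and 45.4 ± 17.3 CPM in SPF (SD, n = 5 each; log2 -0.70 ± 0.23, SE; edgeR unadjusted p = 0.0118, adjusted p = 0.977), while Prom1 was at 0.43 on the log2 scale. Of 11 Wnt targets, 8 were below 0 (median -0.29), and 9 were without those 3 libraries (median -0.44). The feedback ubiquitin ligase Rnf43 was at -0.29 with all libraries and at -0.36 without the 3. Of the 17 Wnt ligands, receptors and transducers tested of 20, 7 were below 0 with all libraries (median 0.01) and without the 3 (median 0.14). In that list the secreted Wnt antagonist Sfrp5 was at 0.724 ± 0.367 CPM in VSG and 2.43 ± 1.07 CPM in SPF (SD, n = 5 each; log2 -1.71 ± 0.42, SE; edgeR unadjusted p = 0.00178, adjusted p = 0.977).

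Signals other than Wnt had values on both sides of 0. Of 10 Notch pathway genes 6 were above 0 (median 0.0047), and 5 were without the 3 libraries that stand apart (median -0.02). Dll4, a Notch ligand of crypt epithelium, was at 21.39 ± 3.033 CPM in VSG and 14.49 ± 2.615 CPM in SPF (SD, n = 5 each; log2 0.56 ± 0.16, SE; edgeR unadjusted p = 0.00513, adjusted p = 0.977). Of 11 EGF pathway genes 7 were above 0 (median 0.10), and without the 3 libraries that stand apart 10 were (median 0.39). Ereg, an EGF receptor ligand, was at 74.5 ± 19.2 CPM in VSG and 42.3 ± 10.1 CPM in SPF (SD, n = 5 each; log2 0.82 ± 0.22, SE; edgeR unadjusted p = 0.00311, adjusted p = 0.977). Of 17 BMP pathway genes 10 were below 0 with all libraries (median -0.07) and without the 3 (median -0.10). The BMP list had 1 gene with an unadjusted p under 0.05, Smad4, the shared transducer of BMP and TGF-beta signals, which was above 0, at 97.8 ± 22.5 CPM in VSG and 68.8 ± 19.8 CPM in SPF (SD, n = 5 each; log2 0.51 ± 0.21, SE; edgeR unadjusted p = 0.0358, adjusted p = 0.977). The ligand gene Bmp4 was at -0.31. Of 24 cell cycle genes 23 were below 0, at a median of -0.20 (-0.30 without the 3 libraries that stand apart), with Pcna at -0.25 and Mcm6 at -0.32.

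**Figure D5:**
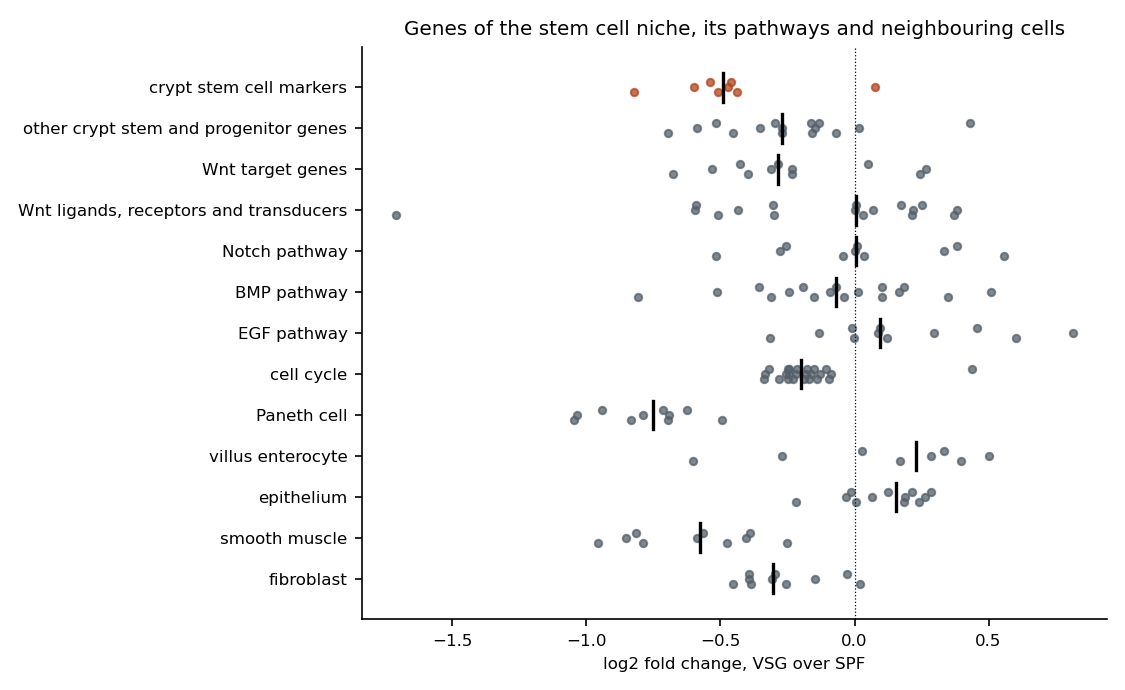
Log2 fold change of VSG against SPF (x axis) for every gene tested in each pathway and cell type list, with the median of each list as a bar. The 8 stem cell markers have a median of -0.49, and the Paneth cell, smooth muscle and cell cycle lists also have medians below 0, at -0.75, -0.58 and -0.20.

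Several lists of other cell types had most of their genes on the same side of 0 as the 8 genes, with none called. The Paneth cell list, whose cells border the stem cells, had 10 of 10 genes below 0 with a median of -0.75, and likewise 10 of 10 with a median of -1.60 without the 3 libraries that stand apart, with summed levels of 3937 to 19520 CPM in VSG and 2513 to 33210 CPM in SPF. Its defensin genes Defa3 and Defa17 are near-identical copies, and their separate values are uncertain. Defa21 and Defa22 also had close values in every library, so the 10 genes may not be 10 separate measures. Smooth muscle genes were below 0 for 10 of 10 (median -0.58), and for 9 of 10 without the 3 libraries (median -0.42), with sums of 784.4 to 1632 CPM in VSG and 314.4 to 3935 CPM in SPF. Neuron and glia genes were below 0 for 9 of 10 (median -0.64, and -0.41 without the 3 libraries; sums 31.3 to 57.3 against 17.9 to 58.1 CPM). The exception was Ret, a receptor tyrosine kinase gene of enteric neurons, at 26.0 ± 12.8 CPM in VSG and 13.7 ± 3.68 CPM in SPF (SD, n = 5 each; log2 0.92 ± 0.31, SE; edgeR unadjusted p = 0.012, adjusted p = 0.977), and it made up 48.2 of the 57.3 CPM of that sum in VSG 3. Fibroblast genes were below 0 for 9 of 10 (median -0.30, and -0.44 without the 3 libraries; sums 364.3 to 529.3 against 293 to 670.9 CPM). Villus enterocyte genes were above 0 for 6 of 8 (median 0.23), and for 8 of 8 without the 3 libraries (median 0.47). T cell genes were below 0 for 7 of 7 (median -0.59, and -0.92 without the 3 libraries; sums 11.4 to 63.9 against 25.7 to 71.6 CPM). Of 9 neutrophil genes 5 were not tested, and the defining Ngp, Camp and Ly6g were at no more than 0.155 CPM. Of the 4 tested, 2 were below 0 and 2 above, 1 of these at an unadjusted edgeR p under 0.05. Csf3r, at 2.84 to 5.24 CPM, had a fold change of -0.23, and Cxcr2, at 4.53 to 7.45 CPM, had 0.10. With the smooth muscle level as a covariate the median of the 8 stem cell markers was -0.41, and with the cell cycle level -0.44, against -0.49 without. The part of the other cell types in these fold changes was not tested.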

How the data were processed

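Total RNA from the ileum of 10 mice was made into TruSeq libraries and read as single-end reads of 50 bases, per the labels' protocols. For each library the authors deposited a table of estimated counts per gene, in which 33.33% of the values above 0 were exactly whole numbers. They also deposited log2 values relative to the sham median, which were used only to check the tables: over 14619 genes with counts over 5 in all libraries, a gene's log2 count minus its deposited log2 value differed between libraries by 1 constant per library pair (SD over genes at most 3.4e-07). The submitters' processing notes name the build mm9 and DESeq, and the aligner and counter are not given in the sources used here. Samples were grouped by the surgery in the labels, and p-values measure the spread between these samples, as the labels do not state more about their independence.

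Rounded counts were analysed in R 4.3.3 with edgeR 4.0.16: filterByExpr (count minimum 10, total minimum 15), TMM factors, the quasi-likelihood F test on a model of surgery alone, with Benjamini-Hochberg adjusted p-values over the 15678 genes tested, at 0.05. SE is the fold change over the root of F, and intervals are 95%. Correlations used log2 CPM with a prior count of 2 and exact permutation. DESeq2 1.42.0 and limma 3.58.1 served as alternatives, beside other scalings, covariates and left-out libraries. The test was first tried on simulated data. Levels per kilobase used exon lengths from GENCODE M21, and coordinates are given only for promoter windows, in GRCm38.p6.

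The members and all gene lists were chosen with earlier results of these data known. Named genes are the 8 members, up to 3 genes per list with the lowest unadjusted p (mean 1 CPM or more), and the 3 genes (mean 5 CPM or more) most correlated with each of Lgr5, Smoc2 and Olfm4. Gata4 and Fabp6, Defa21 and Defa22, and Ngp, Camp and Ly6g, were named outside this rule after their values were seen. Lists not described in the report also had 0 genes called: epithelium 3 of 12 below 0, goblet cell 4 of 8, upper small intestine 6 of 7 tested, ileum 0 of 5, interstitial cells of Cajal 3 of 3, endothelium 5 of 5 and B cell 2 of 9. Without the 3 libraries that stand apart these were epithelium 6 of 12, goblet cell 6 of 8, upper small intestine 4 of 7, ileum 0 of 5, Cajal 3 of 3, endothelium 3 of 5 and B cell 9 of 9, where the B cell median turned from 0.12 to -0.66.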

Additional observations from a re-analysis of the deposited data

How the results depend on the processing

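Each fold change of the 8 genes was recomputed under 24 other settings, 192 values in all, of which 189 kept their direction and their side of the threshold. The 3 that turned were all of Bmi1, at -0.013 with library totals only, -0.20 with epithelial genes as the reference, and -0.086 without the 3 libraries that stand apart and SPF 3. That last setting, and the smooth muscle and cell cycle covariates, were chosen after seeing the data. In that last setting 8 of 8 genes were below 0 (median -0.78), and it gave the lowest adjusted p of the 8 genes over all settings, 0.156. None of the 8 was called in any setting. The number of genes called was 0 in every edgeR fit and with limma-voom, and 11 with the DESeq2 test, and the cause was not tested. Leaving out each library in turn gave 0 genes called each time and moved the median of the 8 genes between -0.63 (without SPF 3) and -0.37 (without SPF 5), Lgr5 between -0.66 and -0.29, Smoc2 between -0.76 and -0.49, Olfm4 between -1.26 and -0.60, Ascl2 between -0.68 and -0.34, Msi1 between -0.57 and -0.28, Lrig1 between -0.63 and -0.31, Tnfrsf19 between -0.62 and -0.34 and Bmi1 between 0.0029 and 0.16. Without the filter on low counts 24701 genes were tested and 1015 had an unadjusted p under 0.05, against 595.

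VSG and SPF libraries share replicate numbers, but same-numbered libraries did not deviate together (r of -0.319 to 0.182), and 1 of 10 libraries correlated best with its own number, so the numbers were not taken as pairs. With the replicate block 0 genes were called, 408 had an unadjusted p under 0.05, and the median of the 8 genes was -0.44.

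Depth limits Ascl2 and Tnfrsf19 most, with as few as 33 and 45 reads in a library.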
